A study of Mus musculus with 12 samples.

Results

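The receptors that share the common gamma chain were followed through their 8 genes in OTII cells: Il2rg, which encodes the common gamma chain itself, Il2rb, the beta chain of the IL-2 and IL-15 receptors, and the chains that give each receptor its ligand, Il2ra, Il4ra, Il7r, Il9r, Il15ra and Il21r. The 8 genes were found by symbol among the 40840 genes listed in each count file, and all 8 were among the 13570 genes that passed the filter on low counts and were tested. OTII cells are CD4+ T cells whose transgenic receptor recognizes an OVA peptide. Naive cells of this kind were transferred into WT or Il6-/- recipients, which were sensitized i.n. with 100 µg of HDM extract containing LPS and 5 µg of OVA, and the donor cells were sorted from the mediastinal lymph nodes after staining for B220, CD4, CD44 and CD45.1 (the tissue named in the sample labels is blood). The groups were WT Day 3, Il6-/- Day 3, WT Day 5 and Il6-/- Day 5, with 3 libraries each and 12 in all. All groups received the same sensitization and OTII donor cells, and the genotype is that of the recipients. No unsensitized or naive OTII group was analysed here. The sources used here do not say whether the replicates came from separate or pooled mice. The p values of the main fit set a group difference against the spread between libraries, estimated over all 12.

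Each cytokine of this family binds its own receptor chain, and the common gamma chain completes the signaling complex. IL-2 uses the alpha, beta and gamma chains, IL-15 uses the same beta and gamma chains with its own alpha chain, and IL-4, IL-7, IL-9 and IL-21 each pair a private chain with the gamma chain. The kinase JAK1 is bound to the private or beta chains and JAK3 to the gamma chain, and the signal is carried mainly by STAT5 for IL-2, IL-7, IL-9 and IL-15, by STAT6 for IL-4 and by STAT3 for IL-21. In CD4+ T cells, the IL-2 receptor alpha chain (CD25) is induced by activation, the IL-7 receptor marks naive and memory cells, and IL-4 acts through its receptor in Th2 cell differentiation.

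The genes lie in GRCm39 on chromosomes 2, 7, 11, 15 and X. Il2ra (chr2:11647618-11698004) and Il15ra (chr2:11710101-11739128) are neighbors on the plus strand, 12096 bp apart, and Il4ra (chr7:125151079-125182844) and Il21r (chr7:125202601-125232756) are neighbors on the plus strand, 19756 bp apart. The other 4 genes are on the minus strand, Il7r at chr15:9505874-9530262, Il2rb at chr15:78363456-78395566, Il9r at chr11:32137541-32150279 and Il2rg at chrX:100307984-100311861. The 250 bases before the annotated start of both neighboring pairs are shown in the direction of transcription, because the members of each pair lie next to each other. Sequence was read from the GRCm39 genome, the starts from GENCODE vM39, and capitals mark matches to the motifs described next.
Il2ra, chr2:11647368-11647617, plus strand: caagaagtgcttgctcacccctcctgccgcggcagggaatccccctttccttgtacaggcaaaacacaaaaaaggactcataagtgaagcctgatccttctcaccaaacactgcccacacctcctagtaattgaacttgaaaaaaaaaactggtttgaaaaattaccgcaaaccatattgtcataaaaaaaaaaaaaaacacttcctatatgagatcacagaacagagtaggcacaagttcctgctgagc
Il15ra, chr2:11709851-11710100, plus strand: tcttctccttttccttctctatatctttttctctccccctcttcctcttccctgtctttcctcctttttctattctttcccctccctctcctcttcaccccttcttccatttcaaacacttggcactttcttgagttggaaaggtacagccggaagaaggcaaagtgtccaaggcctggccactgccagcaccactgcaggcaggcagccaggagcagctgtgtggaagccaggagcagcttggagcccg
Il4ra, chr7:125150829-125151078, plus strand: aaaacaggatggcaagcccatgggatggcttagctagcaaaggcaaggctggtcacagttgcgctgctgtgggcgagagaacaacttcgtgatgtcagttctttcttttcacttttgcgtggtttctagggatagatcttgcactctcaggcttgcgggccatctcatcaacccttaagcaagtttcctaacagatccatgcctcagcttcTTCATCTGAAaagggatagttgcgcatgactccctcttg
Il21r, chr7:125202351-125202600, plus strand: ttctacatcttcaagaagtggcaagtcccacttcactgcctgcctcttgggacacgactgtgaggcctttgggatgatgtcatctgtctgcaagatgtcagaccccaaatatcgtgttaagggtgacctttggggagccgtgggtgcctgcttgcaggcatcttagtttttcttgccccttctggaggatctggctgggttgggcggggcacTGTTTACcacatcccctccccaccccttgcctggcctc

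3 motifs were searched on both strands of these windows: TTCNNNGAA, the element of most STAT factors, the wider-spaced element of STAT6 (TTC and GAA with 4 bases between them), and GTAAACA, the forkhead element. TTCNNNGAA was in 7.83% of the 21734 windows of protein-coding genes and in none of the 8 receptor genes. The STAT6 element was in 5.97% of the windows and in that of Il4ra, 39 bases before the start. GTAAACA was in 2.98% of the windows and in that of Il21r, on the minus strand 38 bases before the start. The letters of the other 6 windows held none of the 3 motifs. The GC content of the windows was lowest for Il2ra (42.4%) and highest for Il21r (55.6%).

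Each library had between 16125947 and 26111657 reads counted on genes. Il2ra had at least 54 reads in a library, Il15ra at least 65, and the other 6 chains at least 201. Values are given as CPM, counts scaled to a common library size, after TMM scaling. The markers of CD4+ T cells were abundant in every library (summed Cd3d, Cd3e, Cd3g, Cd4, Cd5 and Lck, 4771 to 8404 CPM). Of the markers of other cells, those of B cells summed to 6.32 to 16.6 CPM over all libraries and those of myeloid and dendritic cells to 8.79 to 43.8 CPM. Ms4a1 was listed at 0 in 9 of 12 libraries, Itgax in 9, Ncr1 in 11 and Klra8 in all 12.

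Il2rg was the most abundant receptor transcript, followed by Il2rb and Il21r, and this order held in every group without overlap between the libraries of neighboring ranks. To compare genes, CPM were divided by the length of the merged exons. Il2rg then had 446 and 593 CPM per kb in WT recipients on Day 3 and Day 5, and 440 and 561 CPM per kb in Il6-/- recipients. Il2rb had 128, 139, 136 and 166 CPM per kb for WT Day 3, Il6-/- Day 3, WT Day 5 and Il6-/- Day 5, and Il21r had 76.7, 70.4, 90.3 and 86.5 CPM per kb in that order. The other 5 chains were below 15 CPM per kb in mean level in all groups. Of the summed length-scaled level of the 8 chains, Il2rg took 64.4% to 70.3% as the mean of a group, Il2rb 16.2% to 20.3% and Il21r 10.2% to 11.5%. The sum was 669 ± 15.6 CPM per kb for WT Day 3, 683 ± 18.7 for Il6-/- Day 3, 844 ± 20.2 for WT Day 5 and 843 ± 43.9 for Il6-/- Day 5 (SD, n = 3).

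The rank of Il2ra moved most. On Day 3 in WT recipients it was next below Il4ra (4.69 against 7.67 CPM per kb), with libraries that overlapped those of Il9r (3.00). In Il6-/- recipients on Day 3 it was next below Il21r (14.0 CPM per kb), with libraries that overlapped those of Il4ra (10.4). On Day 5 it was last in both genotypes (0.526 CPM per kb in WT and 1.10 in Il6-/-), and all of its libraries were below those of Il15ra (2.03 and 2.42). Il7r moved up, from 2.24 CPM per kb in WT on Day 3, where it overlapped Il9r, to 8.03 on Day 5, where it overlapped Il4ra (9.94). In Il6-/- recipients on Day 5, the libraries of Il4ra (11.7), Il7r (8.66) and Il9r (6.73) overlapped with their neighbor in that order. The share of Il2ra in the summed receptor level was 0.699% for WT Day 3, 2.05% for Il6-/- Day 3, 0.0622% for WT Day 5 and 0.129% for Il6-/- Day 5.

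**Figure D1:**
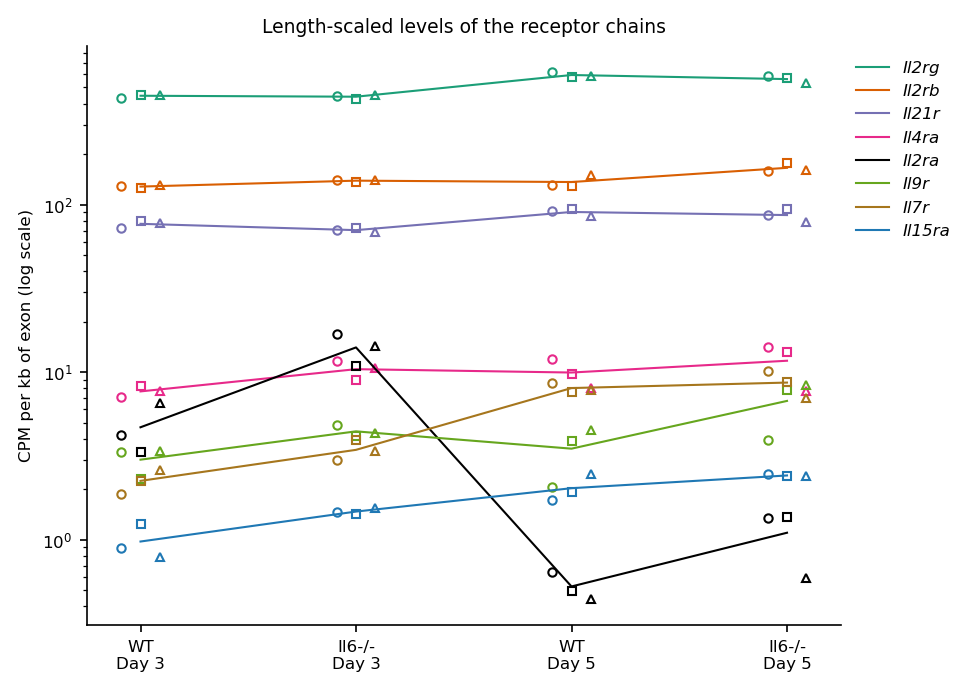
Levels of the 8 receptor chains in CPM per kb of exon on a log axis, by group; symbols are the 3 libraries of each group (circle, square and triangle for replicates 1, 2 and 3) and lines join the group means. Il2rg, Il2rb and Il21r stay above all other chains, while Il2ra goes from 14.0 CPM per kb in Il6-/- recipients on Day 3 to 1.10 on Day 5.

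The next comparison asked how receptor transcripts differed between recipients on Day 3. Il2ra and Il7r were higher in OTII cells from Il6-/- recipients, and no chain was lower. Il2ra had 24.0, 19.1 and 37.2 CPM in WT recipients (replicates 1, 2 and 3) and 96.7, 62.5 and 81.3 CPM in Il6-/- recipients. The lowest Il6-/- library was above the highest WT library, and the change was 3.00-fold (log2 fold change (log2FC) 1.59, standard error (SE) 0.26, FDR = 9.7e-04). FDR stands for the p of edgeR's quasi-likelihood F test after Benjamini-Hochberg adjustment over all genes tested. Il7r had 8.70, 10.5 and 12.2 CPM in the WT libraries and 14.0, 18.4 and 15.7 CPM in those from Il6-/- recipients, and all Il6-/- libraries were above those of WT (log2FC 0.62, SE 0.16, FDR = 0.017). In sorted cells, fewer cells of a type that expresses a gene and less RNA per cell cannot be told apart.

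Il15ra, Il4ra, Il9r and Il2rb were higher in every Il6-/- library than in any WT library on Day 3 but did not pass. Il15ra had 3.94, 5.54 and 3.53 CPM in the WT libraries and 6.49, 6.31 and 6.82 CPM in those from Il6-/- recipients (log2FC 0.59, SE 0.20, FDR = 0.062). Il4ra had 70.5, 82.6 and 76.6 CPM in the WT libraries and 117, 89.0 and 106 CPM in those from Il6-/- recipients (log2FC 0.44, SE 0.18, FDR = 0.14). Il9r, the receptor for the Th2 and Th9 product IL-9, had 16.6, 11.3 and 16.7 CPM in the WT libraries and 23.8, 20.5 and 21.5 CPM in those from Il6-/- recipients (log2FC 0.56, SE 0.28, FDR = 0.22). Leaving out 1 library brought Il15ra under the threshold without WT Day 3 replicate 2 (log2FC 0.81, FDR = 0.031) and WT Day 5 replicate 3 (FDR = 0.0499), and Il4ra without Il6-/- Day 5 replicate 3 (FDR = 0.041). These were 2 of 12 such fits for Il15ra and 1 of 12 for Il4ra, and in the others the FDR was up to 0.21 and 0.36. Il2rb had a much smaller difference, with 558, 544 and 567 CPM in the WT libraries and 607, 592 and 613 CPM in those from Il6-/- recipients (log2FC 0.12, 95% confidence interval −0.036 to 0.27, FDR = 0.33). Il21r lay the other way, with 245, 270 and 265 CPM in the WT libraries and 238, 245 and 232 CPM in those from Il6-/- recipients (log2FC −0.13, 95% confidence interval −0.30 to 0.045, FDR = 0.35). Il2rg had 1035, 1079 and 1079 CPM in the WT libraries and 1057, 1012 and 1082 CPM in those from Il6-/- recipients, and these libraries overlapped (log2FC −0.019, 95% confidence interval −0.15 to 0.12, FDR = 0.89).

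In all, 2 of 8 chains were called higher on Day 3 and none lower, whereas 7.52% of all genes tested were called higher and 6.19% lower. 1 chain, Il2ra, was also changed at least 2-fold, a rule that 2.74% of all genes passed. WT and Il6-/- libraries did not overlap for 7 of 8 chains, all but Il2rg, and for 36.2% of all genes. The median log2FC of the 8 chains was 0.50, and that of all genes tested was 0.015. The call of Il2ra held in all 12 fits that left out 1 library (FDR at most 0.0080). The call of Il7r held in 9 of the 12, and the FDR was 0.073 without WT Day 3 replicate 1, 0.060 without WT Day 3 replicate 2 and 0.085 without Il6-/- Day 3 replicate 2.

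Markers of other cells that express these receptors also differed on Day 3. Foxp3, Ikzf2, Ikzf4 and Lrrc32, markers of regulatory T cells, which express CD25 at a high level, summed to 76.1 to 84.3 CPM in the WT libraries and 53.1 to 65.4 CPM in those from Il6-/- recipients. Most of the sum was Ikzf2, the 1 of 4 that was called (log2FC −0.44), while Foxp3 (−0.58), Ikzf4 (0.097) and Lrrc32 (1.16) did not pass. Those of NK and CD8 T cells, which express Il2rb, summed to 62.3 to 74.1 CPM in the WT libraries and 82.9 to 113 CPM in those from Il6-/- recipients, with 1 of 3 tested called higher, Klrb1c (log2FC 2.11). Most of that sum was Cd8b1, at 56.3 to 84.2 CPM over all libraries, and Cd8a had at most 1.70 CPM in any library. Those of B cells, which express Il4ra and Il21r, summed to 6.32 to 8.63 CPM in the WT libraries. The sum was 13.6 to 14.6 CPM in those from Il6-/- recipients. Most of this rise was Cd22, with a mean of 0.778 CPM for WT Day 3 against 6.61 for Il6-/- Day 3. Of 4 tested, Cd22 was called higher (log2FC 3.03) and Pax5 lower (log2FC −2.26), while Cd79a (0.13) and Cd79b (0.33) did not pass. Those of innate lymphoid cells, which express Il7r and Il9r, summed to 190 to 197 CPM and 210 to 239 CPM. Most of that sum was Gata3, which Th2 cells also express. Of 3 tested, Gata3 was called higher (log2FC 0.34) and Kit lower (log2FC −2.75), while Rora (−0.62) did not pass. Il1rl1, another marker of innate lymphoid cells, was listed at 0 in 10 of 12 libraries. The part of such cells in the receptor values was not tested.

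**Figure D2:**
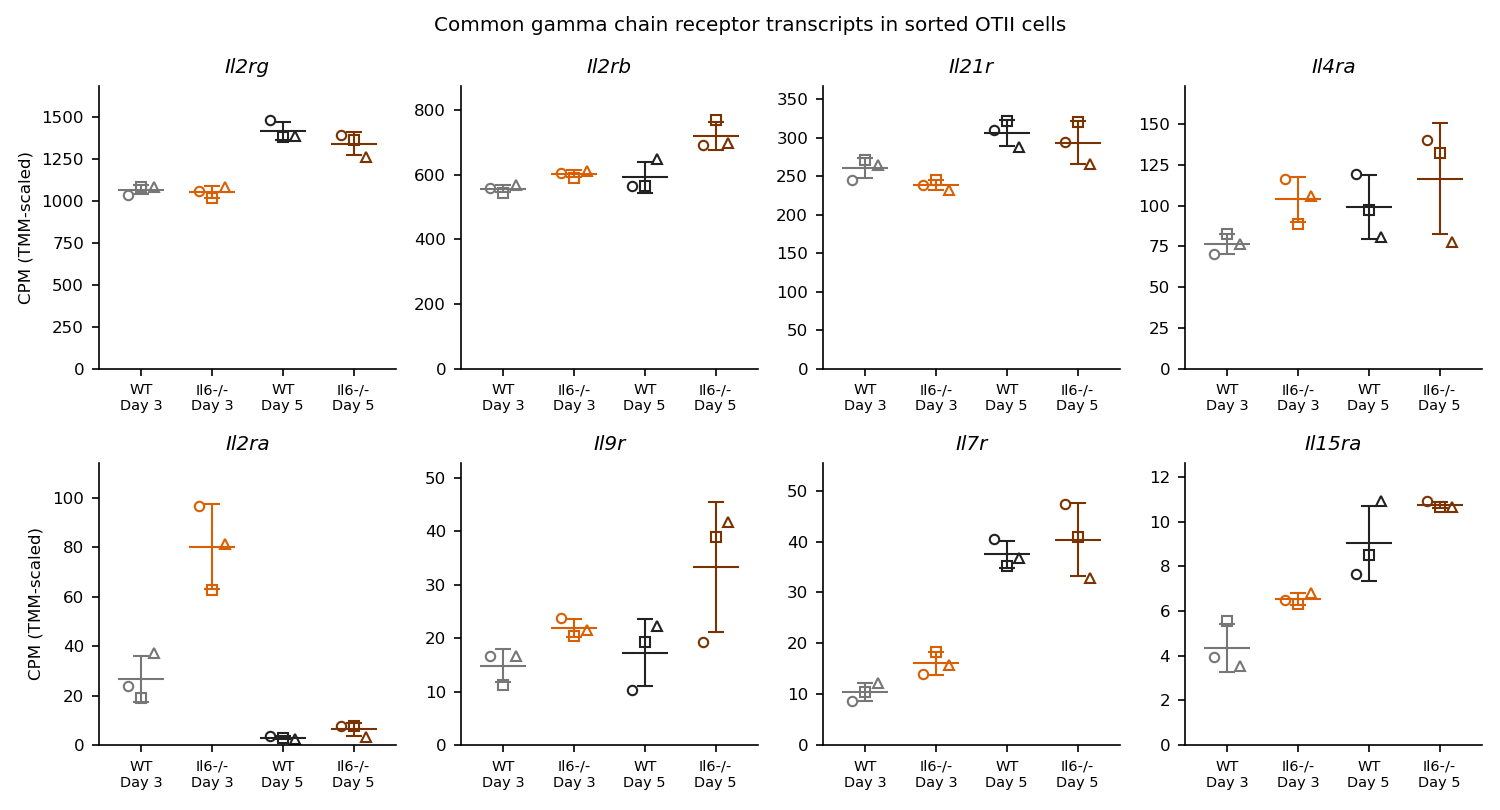
CPM of each receptor chain in every library by group on linear axes that start at 0; symbols are libraries (circle, square and triangle for replicates 1, 2 and 3), and bars are the mean and SD of 3 libraries. Il2ra on Day 3 lies between 62.5 and 96.7 CPM in Il6-/- recipients and between 19.1 and 37.2 CPM in WT recipients, and below 8 CPM in every library on Day 5.

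On Day 5, Il2rb was the chain that was called between the recipients. It had 565, 564 and 649 CPM in the WT libraries and 692, 770 and 699 CPM in those from Il6-/- recipients, and all Il6-/- libraries were above those of WT (log2FC 0.28, SE 0.072, FDR = 0.037). Of the 12 fits that left out 1 library, the call held in 3, those without WT Day 3 replicate 1, WT Day 5 replicate 3 or Il6-/- Day 5 replicate 1, and in the other 9 the FDR rose up to 0.16 (without WT Day 5 replicate 1). With the 6 libraries of Day 5 alone, the FDR was 0.18. Il9r had a larger difference, with 10.2, 19.3 and 22.3 CPM in the WT libraries and 19.4, 38.8 and 41.7 CPM in those from Il6-/- recipients (log2FC 0.94, SE 0.28, FDR = 0.067). Replicate 1 was the lowest in both genotypes, and the groups overlapped. Without WT Day 5 replicate 3 the log2FC of Il9r was 1.18 (FDR = 0.029), and without Il6-/- Day 5 replicate 1 it was 1.22 (FDR = 0.0075). Il9r passed only in these 2 of the 12 fits without 1 library, with an FDR up to 0.24 in the others. Il2ra had 3.66, 2.81 and 2.54 CPM in the WT libraries and 7.67, 7.79 and 3.38 CPM in those from Il6-/- recipients, where replicate 3 was within the WT range (log2FC 1.06, SE 0.33, FDR = 0.084). Without that library the log2FC of Il2ra was 1.37 (FDR = 0.028). Il2ra passed only in this 1 of the 12 such fits, with an FDR up to 0.28 in the others.

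Libraries with the same replicate number deviated together on Day 5, and with the number as a block 3 chains were called higher in Il6-/- recipients. They were Il2rb (log2FC 0.28, FDR = 0.011), Il2ra (log2FC 1.02, FDR = 0.0089) and Il9r (log2FC 0.94, FDR = 2.8e-04). Of all genes tested, 11.7% were called in either direction with this block. No label states that these libraries were paired, and the pairing was read from the same data as these calls and the ratios below. Il9r was at 1.87 to 2.02 times the WT level of the same-numbered library in 3 of 3 pairs. Il2rb was at 1.08 to 1.36 times and Il2ra at 1.33 to 2.78 times the WT level, also in 3 of 3 pairs.

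**Figure D3:**
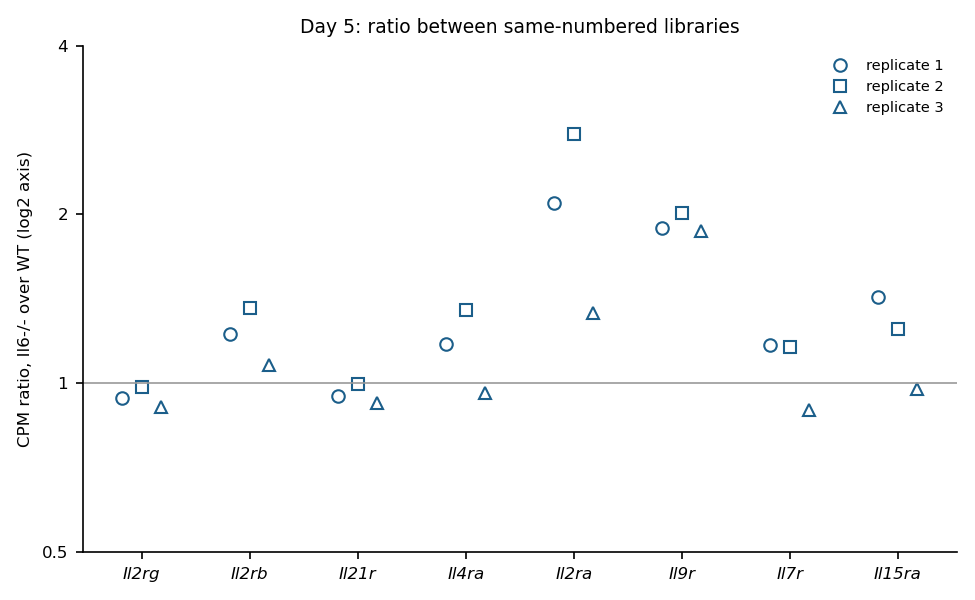
Ratio of CPM in Il6-/- over WT recipients on Day 5 between libraries of the same replicate number, on a log2 axis; each symbol is 1 pair and the line marks a ratio of 1. The 3 ratios of Il9r lie between 1.87 and 2.02, and those of Il2rg and Il21r lie at or below 1.

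The other chains did not pass on Day 5 with or without the block. Il4ra had 119, 97.6 and 80.6 CPM in the WT libraries and 140, 132 and 77.5 CPM in those from Il6-/- recipients, with the lowest value of each group in replicate 3 (log2FC 0.23, FDR = 0.54). Il7r had 40.4, 35.3 and 36.7 CPM in the WT libraries and 47.4, 40.9 and 32.9 CPM in those from Il6-/- recipients (log2FC 0.11, FDR = 0.75). Il15ra had 7.64, 8.52 and 10.9 CPM in the WT libraries and 10.9, 10.7 and 10.7 CPM in those from Il6-/- recipients (log2FC 0.25, FDR = 0.51). Il21r had 310, 321 and 288 CPM in the WT libraries and 295, 320 and 265 CPM in those from Il6-/- recipients (log2FC −0.061, FDR = 0.74). Il2rg had 1478, 1381 and 1387 CPM in the WT libraries and 1392, 1362 and 1261 CPM in those from Il6-/- recipients (log2FC −0.081, 95% confidence interval −0.21 to 0.053, FDR = 0.53). The groups overlapped for all 5.

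In the test without the block, 1 of 8 chains was called higher and none lower, against 1.27% of all genes called higher and 3.35% called lower. DESeq2 called 2 chains and 10.1% of all genes. At an unadjusted p under 0.05 there were 3 chains, and the share of all genes at that level was not counted. No chain was called at a change of at least 2-fold by edgeR, a rule that 1.14% of all genes passed. The libraries did not overlap for 1 of 8 chains and for 19.6% of all genes. The median log2FC was 0.24 over the 8 chains and 0.011 over all genes. The summed markers of regulatory T cells were 112 to 126 CPM in the WT libraries and 93.9 to 110 CPM in those from Il6-/- recipients on Day 5. Most of the sum was Ikzf2 (log2FC −0.27). None of the 4 was called, and Foxp3 (0.72) and Lrrc32 (1.37) had a log2FC above 0, while Ikzf4 had −0.073. Those of NK and CD8 T cells summed to 87.0 to 109 and 80.3 to 97.8 CPM, with Klrb1c called lower (log2FC −0.60, FDR = 0.0497). Markers of B cells summed to 8.99 to 11.5 and 11.4 to 16.6 CPM, with none of 4 tested called. Those of innate lymphoid cells summed to 219 to 272 and 265 to 313 CPM. Of these, Gata3 was called higher (log2FC 0.35), while Kit (0.88) and Rora (−0.13) did not pass. The part of such cells in the receptor values of Day 5 was not tested.

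**Figure D4:**
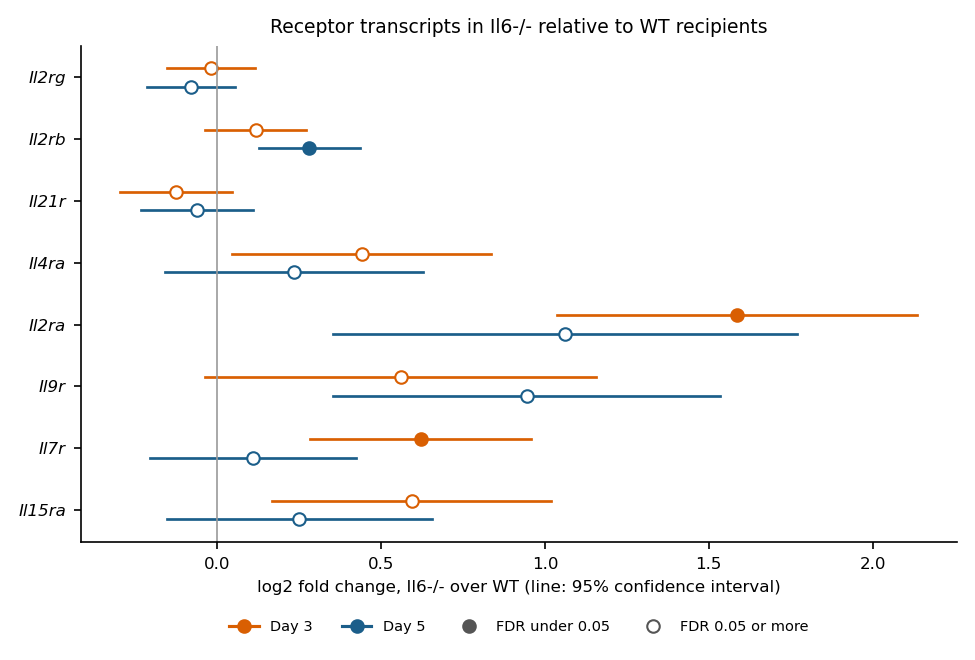
Log2 fold change of each receptor chain in Il6-/- over WT recipients on Day 3 and Day 5, with 95% confidence intervals from edgeR; filled points have an FDR under 0.05. Il2ra (1.59) and Il7r (0.62) are filled on Day 3 and Il2rb (0.28) on Day 5, and the intervals of Il2rg and Il21r include 0 on both days.

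An interaction term asked whether the genotype difference itself changed from Day 3 to Day 5. None of the 8 chains was called by edgeR or by DESeq2, against 4.92% of all genes by edgeR. At an unadjusted p under 0.05, a level for which the share of all genes was not counted, there was 1 chain, Il7r. Its difference between genotypes was larger on Day 3 by 0.51 on the log2 scale (SE 0.22, 95% confidence interval 0.051 to 0.97, FDR = 0.20). The difference of Il2ra was larger on Day 3 by 0.53 (95% confidence interval −0.37 to 1.42, FDR = 0.53). That of Il9r was −0.38 (95% confidence interval −1.22 to 0.45) and that of Il2rb was −0.16 (95% confidence interval −0.38 to 0.052), in the direction of a larger difference on Day 5, and neither passed (FDR = 0.64 and 0.40). The calls of single chains on 1 day and not the other therefore do not show that the effect of the recipient differed between the days.

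From Day 3 to Day 5, Il2ra fell and most other chains rose, in recipients of both genotypes. Il2ra went from 26.8 ± 9.35 CPM to 3.00 ± 0.588 CPM in WT recipients, 8.89-fold lower (log2FC −3.15, SE 0.31, FDR = 6.8e-07). In Il6-/- recipients it went from 80.2 ± 17.1 CPM to 6.28 ± 2.51 CPM, 12.8-fold lower (log2FC −3.68, SE 0.29, FDR = 7.4e-08). In both genotypes the highest Day 5 library was far below the lowest Day 3 library, and 1.57% of all genes in WT and 0.693% in Il6-/- recipients had a larger change in either direction. The Day 5 level in Il6-/- recipients was below the Day 3 level in WT recipients in every library.

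Il7r rose the most of the chains. It went from 10.5 ± 1.76 to 37.5 ± 2.66 CPM in WT (3.59-fold, log2FC 1.85, SE 0.16, FDR = 1.8e-07) and from 16.03 ± 2.19 to 40.4 ± 7.25 CPM in Il6-/- recipients (2.52-fold, log2FC 1.33, SE 0.15, FDR = 2.5e-06). Il15ra, the neighbor of Il2ra on chromosome 2, rose where Il2ra fell, from 4.34 ± 1.06 to 9.02 ± 1.69 CPM in WT (log2FC 1.06, SE 0.20, FDR = 3.3e-04) and from 6.54 ± 0.260 to 10.7 ± 0.136 CPM in Il6-/- recipients (log2FC 0.71, SE 0.19, FDR = 0.0050). Day 3 and Day 5 libraries did not overlap for either gene in either genotype.

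The abundant chains rose by less. Il2rg went from 1064 ± 25.5 to 1415 ± 54.8 CPM in WT (1.33-fold, log2FC 0.41, SE 0.063, FDR = 5.5e-05) and from 1051 ± 35.4 to 1338 ± 68.9 CPM in Il6-/- recipients (1.27-fold, log2FC 0.35, FDR = 2.1e-04). Il21r went from 260 ± 13.1 to 306 ± 16.9 CPM in WT (log2FC 0.23, SE 0.080, FDR = 0.021) and from 238 ± 6.31 to 293 ± 27.5 CPM in Il6-/- recipients (log2FC 0.30, FDR = 0.0046). Its call in WT recipients was lost with no filter on low counts (FDR = 0.19), without WT Day 3 replicate 1 (FDR = 0.10), and without WT Day 5 replicate 1 (FDR = 0.055) or 2 (FDR = 0.085). Il2rb rose in Il6-/- recipients, from 604 ± 11.0 to 720 ± 43.2 CPM (log2FC 0.25, SE 0.072, FDR = 0.0065), a call that was lost when genes with low counts were kept (FDR = 0.075). In WT recipients Il2rb had 557 ± 11.4 and 593 ± 48.5 CPM (log2FC 0.090, 95% confidence interval −0.063 to 0.24, FDR = 0.30). The difference of these changes is the interaction given above, which did not pass.

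The receptors of the Th2-related cytokines IL-4 and IL-9 were not called with time. Il4ra, the neighbor of Il21r on chromosome 7, had 76.5 ± 6.06 and 99.2 ± 19.5 CPM in WT (log2FC 0.37, 95% confidence interval −0.021 to 0.77, FDR = 0.097) and 104 ± 13.9 and 117 ± 34.2 CPM in Il6-/- recipients (log2FC 0.17, FDR = 0.45). Replicate 3 of Day 5 was the lowest in both genotypes, and without Il6-/- Day 5 replicate 3 the log2FC of Il4ra was 0.39 in Il6-/- (FDR = 0.036) and 0.37 in WT recipients (FDR = 0.028). Without WT Day 5 replicate 3 it was 0.50 in WT recipients (FDR = 0.042). Il4ra passed in 2 of 12 such fits in WT and 1 of 12 in Il6-/- recipients, with an FDR up to 0.37 and 0.97 in the others. Il9r had 14.9 ± 3.06 and 17.3 ± 6.29 CPM in WT (log2FC 0.22, FDR = 0.52) and 21.9 ± 1.72 and 33.3 ± 12.1 CPM in Il6-/- recipients (log2FC 0.60, 95% confidence interval 0.018 to 1.19, FDR = 0.070). Without Il6-/- Day 5 replicate 1, the library with the lowest Il9r of its group, the log2FC in Il6-/- recipients was 0.87 (FDR = 0.0058), and without WT Day 5 replicate 1 the log2FC stayed at 0.60 with an FDR of 0.033. In Il6-/- recipients Il9r passed only in these 2 of 12 such fits, with an FDR up to 0.27 in the others.

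Time changed the transcriptome broadly, and the counts of receptor chains are read against that. In WT recipients, 4 of 8 chains were called higher and 1 lower on Day 5, against 29.5% and 27.1% of all genes. In Il6-/- recipients, 5 were called higher and 1 lower, against 30.4% and 30.1%. At least 2-fold changes were called for 3 chains in WT (Il2ra, Il7r and Il15ra) and 2 in Il6-/- recipients (Il2ra and Il7r), against 22.1% and 25.9% of all genes. The days did not overlap for 5 of 8 chains in WT and 6 of 8 in Il6-/- recipients, against 63.3% and 65.8%. The median log2FC of the chains was 0.30 in WT and 0.32 in Il6-/- recipients, and that of all genes was 0.091 and 0.087. The markers of CD4+ T cells rose as well, from 4881 to 5420 CPM to 7996 to 8404 CPM in the WT libraries and from 4771 to 4830 CPM to 7123 to 7867 CPM in those from Il6-/- recipients, with 6 of 6 called higher in each. Of the markers of regulatory T cells, Ikzf2 and Ikzf4 rose in both genotypes, and the sum of all 4, mostly Ikzf2, was 112 to 126 CPM in WT and 93.9 to 110 CPM in Il6-/- recipients on Day 5. Foxp3, the defining marker, fell in WT recipients as Il2ra did (log2FC −1.42, FDR = 0.0033), had a log2FC of −0.12 in Il6-/- recipients (FDR = 0.79), and was at 1.92 to 10.1 CPM over all libraries. Myeloid and dendritic markers, of which none was called between genotypes, summed to 8.79 to 19.3 CPM on Day 3 and 16.1 to 43.8 CPM on Day 5 over both genotypes. The part of the cell makeup in these changes was not tested. All Day 5 libraries also had a lower share of reads on genes than any Day 3 library. The part of that difference was not tested either, beyond the scaling alternatives.

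**Figure D5:**
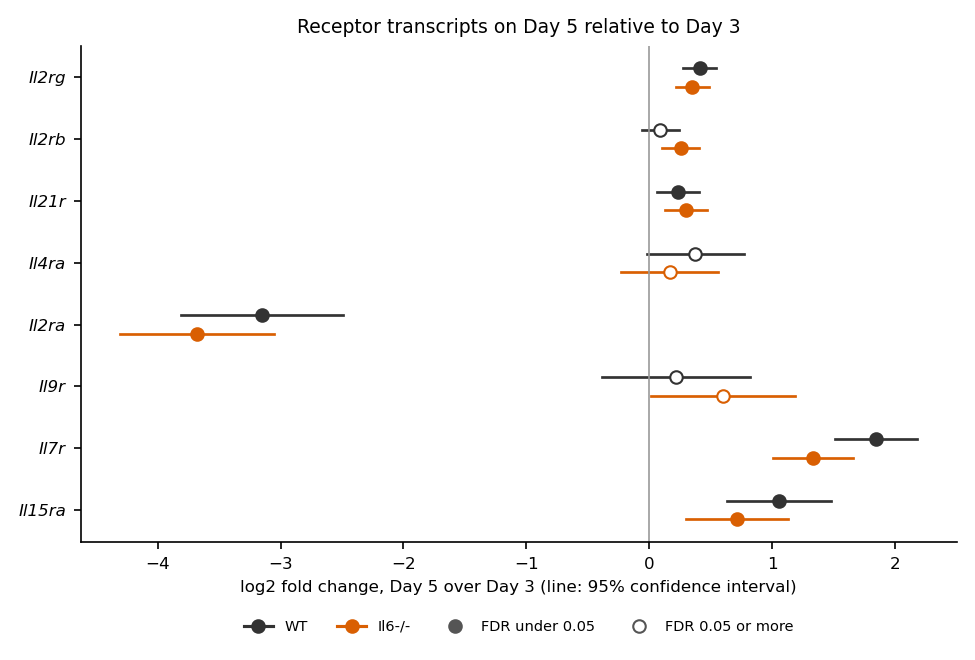
Log2 fold change of each receptor chain on Day 5 over Day 3 in WT and Il6-/- recipients, with 95% confidence intervals from edgeR; filled points have an FDR under 0.05. Il2ra lies at −3.15 and −3.68, Il7r at 1.85 and 1.33, and Il4ra and Il9r are open in both genotypes.

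Of 27 other genes of the pathway, 19 passed the filter on low counts and were tested. Among the ligands, Il7, Il9, Il15, Il13 and Tslp were too low to be tested, each below 1 CPM in all libraries. Il2 had 0.878 ± 0.235 CPM in the WT libraries and 1.15 ± 0.547 CPM in those from Il6-/- recipients on Day 3 and rose to 4.69 ± 1.11 CPM (log2FC 2.42, FDR = 6.3e-05) and 3.35 ± 0.760 CPM (log2FC 1.53, FDR = 0.0023) on Day 5, so that the transcript of IL-2 rose while that of its alpha chain fell. Il4 rose with time in Il6-/- recipients, from 4.42 ± 3.12 to 14.0 ± 8.74 CPM (log2FC 1.66, SE 0.46, FDR = 0.0060), and had 6.91 ± 0.558 and 6.16 ± 2.41 CPM in WT recipients (FDR = 0.77). The Day 3 and Day 5 libraries from Il6-/- recipients overlapped for Il4, and the difference between the days was not called for it (−1.83, FDR = 0.12). Il21, whose product acts on the chain encoded by Il21r, differed far more than its receptor. It had 26.8 ± 0.897 CPM in the WT libraries and 3.80 ± 0.0964 CPM in those from Il6-/- recipients on Day 3 (log2FC −2.82, SE 0.45, FDR = 8.8e-04), and 36.5 ± 17.1 and 34.7 ± 20.0 CPM on Day 5 (FDR = 0.94). The difference between the days was called for Il21 (−2.74, FDR = 0.018).

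Crlf2, which encodes the chain that joins the IL-7 receptor alpha chain in the TSLP receptor, was lower in Il6-/- recipients on Day 3 (24.3 ± 3.61 CPM in WT and 15.1 ± 1.90 CPM in Il6-/-, log2FC −0.69, FDR = 0.0044), whereas Il7r was higher. Crlf2 rose with time alongside Il7r, to 58.5 ± 8.21 and 52.6 ± 4.48 CPM (log2FC 1.27 and 1.81). Il13ra1 and Il13ra2, the chains of the IL-13 receptors, were too low to be tested, with at most 0.364 CPM in any library. Of the kinases on Day 3, Jak3 was lower in Il6-/- recipients (log2FC −0.43, FDR = 0.0021) and so was Jak2 (log2FC −0.41, FDR = 0.015), whereas Jak1 (−0.26, FDR = 0.068) and Tyk2 (0.046) did not pass. Jak3 had 288 ± 6.49 CPM in the WT libraries and 214 ± 15.1 CPM in those from Il6-/- recipients on Day 3, while Il2rg, whose product binds JAK3, had the log2FC of −0.019 given above. All 4 kinases rose with time in Il6-/- recipients, and all but Tyk2 in WT recipients, with Jak2 the most (log2FC 1.61 and 1.33).

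None of Stat3, Stat5a, Stat5b and Stat6 was called between the recipients on either day by edgeR (2 on Day 3 and none on Day 5 had an unadjusted p under 0.05), and Stat3 rose with time in both genotypes. Cish, a feedback inhibitor induced through STAT5, was higher in Il6-/- recipients on both days (log2FC 1.71 and 1.58) and fell with time in both genotypes (log2FC −0.84 in WT and −0.96 in Il6-/-), as Il2ra did. Socs3, the inhibitor induced through STAT3, was lower in Il6-/- recipients on both days (log2FC −2.34 and −0.86), and Socs1 was lower on Day 5 (log2FC −1.03). The difference between the days was called for Socs3 (−1.48, FDR = 0.0081). Socs3 rose with time in both genotypes (log2FC 0.47 in WT and 1.95 in Il6-/-). Of the adaptors, Irs2, which the IL-4 receptor engages, was lower in Il6-/- recipients on Day 3 (2.84 ± 1.37 CPM in WT and 1.21 ± 0.282 CPM in Il6-/-, log2FC −1.23, FDR = 0.047) and rose with time (log2FC 2.19 in WT and 3.11 in Il6-/-), while Shc1, which the IL-2 receptor beta chain engages, fell with time in both (log2FC −0.46 and −0.26). Gab2, another adaptor, rose with time in Il6-/- recipients (0.772 ± 0.192 to 2.15 ± 0.861 CPM, log2FC 1.47, FDR = 0.035) and had a log2FC of −0.59 in WT recipients (FDR = 0.37). Gab2 had only 4 to 53 reads in a library, and the difference between the days was not called for it (−2.07, FDR = 0.15). Socs2 was called in no comparison, at 0.312 to 2.55 CPM in a library, and Irs1 was too low to be tested, with at most 0.102 CPM. In all, 1 of the 19 genes was called higher and 6 lower in Il6-/- recipients on Day 3 (median log2FC −0.26), against 7.52% and 6.19% of all genes. On Day 5, 2 were higher and 2 lower, against 1.27% and 3.35%. With time, 9 were higher and 2 lower in WT recipients, against 29.5% and 27.1% of all genes. In Il6-/- recipients 12 were higher and 2 lower with time, against 30.4% and 30.1%.

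For each chain, the genes whose log2 CPM followed it most closely over the 12 libraries were listed among 11550 genes with at least 1 CPM on average. The points share day and recipient, so that most of the likeness is that of the group means, and r is given as a description. The genes closest to Il2rb were Il17rb, which encodes a chain of the IL-25 receptor (r = 0.93), Gata3, the regulator of Th2 cell differentiation (r = 0.93), and Cybb, a subunit of the phagocyte oxidase (r = 0.92). Cybb was also the closest to Il9r (r = 0.93), followed by Igsf9b and 5033430I15Rik (r = 0.90 each). The genes closest to Il2ra were Armc6 and Prps1, an enzyme of nucleotide synthesis (r = 0.99 each), and Wdr46, a factor of ribosome biogenesis (r = 0.98). Those closest to Il7r were LOC68395, Penk, the proenkephalin gene (r = 0.99 each), and Sp110 (r = 0.98). Il4ra had the weakest likeness of the chains, with Shprh and Dock10 (r = 0.87 each) and Ece1 (r = 0.86). For Il2rg they were Sh3bp5, Uvssa and H2-T22 (r = 0.99, 0.98 and 0.98), for Il21r 2510009E07Rik, Manba and Tut7 (r = 0.95 each), and for Il15ra Gm11655, Atxn1 and Ccdc148 (r = 0.96 each). Among the chains themselves, Il9r was closest to Il2rb (r = 0.82), and Il7r to Il2rg (r = 0.92), over the same 12 libraries.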

How the data were processed

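Ultra-low input libraries of poly(A) RNA were read from a single end. Per the labels and methods, the authors used Trim Galore 0.4.4 to trim the reads, STAR 2.5.2a to align them (GRCm39) and HTSeq 0.6.1p1, unstranded, to count them per gene. The deposited values used here are raw counts per gene symbol. Rows that name no gene held 37.8% to 47.5% of the reads and were left out. These rows took more of the reads at the later time. Each library of Day 3 kept at least 60.2% of its reads on genes, whereas no Day 5 library exceeded 56.7%. Scaling by TMM separated the same libraries, with factors of 0.992 at most against 1.01 at least. Beyond the scaling alternatives, the part of this difference in the changes with time was not tested. The authors' table of log2 CPM was not used. The series text and the paper start to count days differently, and the days here are those of the labels.

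The tests used edgeR 4.0.16 (R 4.3.3): filterByExpr, TMM scaling, and a quasi-likelihood model in which the 12 libraries shared 1 estimate of spread and each group had its own coefficient (common biological coefficient of variation 0.142). A gene was called at an FDR under 0.05. CPM per kb used merged exon lengths of GENCODE vM39. Exons of Il2rb, Il4ra and Il9r overlap those of Gm62993, Gm44876 and Gm40823, of which Gm40823 is listed in the files, with 0 to 2 reads per library. The fit was tested on simulated data.

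The genes named are the 8 chains, all genes of the pathway lists, and for each chain the 3 genes with the highest Pearson r of log2 CPM (prior count 2). Cell markers are named where they bear on a chain. 2 genes of the lists are not reported here and were left out of the lists' counts and sums. The members and lists were chosen with earlier results of these data known. Replicate numbers are those of the labels. On Day 5, the deviations of same-numbered WT and Il6-/- libraries from their group means correlated in all 3 pairs (r = 0.24, 0.21 and 0.13 across genes), so the numbers were taken as pairs from the data, with no label that states a shared batch. On Day 3 they did not reach 0.1. The alternatives were RLE scaling or none, no filter or over 1 CPM in 3 or more libraries, the DESeq2 1.42.0 test, a 2-fold limit, the replicate block, the 6 libraries compared alone, and leaving out each library.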

Additional observations from a re-analysis of the deposited data

How the results depend on the processing

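The number of receptor chains called depended on the setting for the comparisons of the recipients and, with the 2-fold limit set aside, less for those of time. On Day 3 it was 2, and 1 with the 2-fold limit, 4 without a filter on low counts, 4 with only the 6 libraries compared, and 5 with the replicate block, which added Il4ra, Il15ra and Il9r. With that block the share of all genes called on Day 3 was 19.6%, against 13.7% without it. Same-numbered libraries of Day 3 correlated at 0.033, 0.060 and 0.032, each most with its own number. On Day 5 it was 1, and 0 with the 2-fold limit and with only the 6 libraries compared, 2 with DESeq2, and 3 without a filter and with the replicate block. With time it was 5 in WT and 6 in Il6-/- recipients, and 3 and 2 with the 2-fold limit. Without that limit, 29.5% of all genes were called higher and 27.1% lower in WT, and 30.4% and 30.1% in Il6-/- recipients. With the limit the shares were 22.1% in WT and 25.9% in Il6-/- recipients. A block by number left the counts of 5 and 6 chains unchanged. Leaving out 1 library gave 1 to 3 chains on Day 3, 0 to 2 on Day 5, 4 to 6 with time in WT and 6 to 7 in Il6-/- recipients. For the counts with time under the block or without 1 library, the share of all genes is not given here. Nor is it given for Day 5 without a filter. The share of all genes called moved too: on Day 3 from 13.7% to 22.3% with only the 6 libraries compared and 7.98% without a filter, and on Day 5 from 4.61% to 10.1% with DESeq2 and 2.76% with only the 6 libraries compared. Without 1 library it was 6.71% (without WT Day 3 replicate 2) to 14.6% on Day 3, and on Day 5 1.61% (without WT Day 5 replicate 1) to 8.38% (without Il6-/- Day 5 replicate 1). No interaction of a chain was called under any alternative run. Over 752 values of single chains under the alternatives, 699 kept direction and side of the threshold, 18 lost and 29 gained a call, and 6 changed sign, all of them uncalled. These were, as the range over fits without 1 library, the log2FC of Il2rg on Day 3 (−0.054 to 0.0098, lowest without Il6-/- Day 5 replicate 2 and above 0 without Il6-/- Day 3 replicate 2), Il7r on Day 5 (−0.022 to 0.24, below 0 without Il6-/- Day 5 replicate 1), Il21r on Day 5 (−0.10 to 0.0078, above 0 without Il6-/- Day 5 replicate 3), Il9r with time in WT (−0.014 to 0.48, below 0 without WT Day 5 replicate 3) and the interaction of Il4ra (−0.017 to 0.36, below 0 without Il6-/- Day 5 replicate 3), and the interaction of Il2rg with no scaling (−0.038). The cause was not tested. Il2ra on Day 5 had 54 to 145 reads per library, and was called without Il6-/- Day 5 replicate 3, which had 65 reads (log2FC 1.37, FDR = 0.028). Il2ra on Day 5 was not called in the other fits without 1 library (FDR up to 0.28).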
